A study of Mus musculus with 116 samples.

Results

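The genes described here are the 10 that set the G1 to S switch of the cell cycle in this data set: the D cyclins Ccnd1, Ccnd2 and Ccnd3, their kinases Cdk4 and Cdk6, the E cyclins Ccne1 and Ccne2 with their kinase Cdk2, the transcription factor E2f1 and the retinoblastoma gene Rb1. They were chosen by name and are 10 of 53379 genes in the count tables. Their counts were taken from the green libraries that had at least 1000000 uniquely aligned reads making up at least 60% of all reads, which left 55 of 68 green libraries.

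D cyclins are made in response to growth signals, bind CDK4 or CDK6 and start the phosphorylation of RB, the protein that holds E2F transcription factors inactive. Released E2F turns on cyclin E, which with CDK2 completes RB phosphorylation, and E2F also turns on genes for DNA synthesis. In the developing neocortex these genes are used by radial glia, the stem cells that line the ventricle, and by the intermediate progenitors they produce, while newborn neurons leave the cycle.

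The study asked how loss of Eed, a core subunit of the histone methyltransferase complex PRC2, acts on cortical progenitors when only sparse cells lose it and when the whole tissue loses it. Green cells labelled by mosaic analysis with double markers (MADM) on chromosome 7 were sorted from mouse cortex at embryonic day (E) 12.5, E13.5 and E16.5 and at birth (P0), and their RNA was sequenced in bulk, each library from 2 to 3 pooled cortices. All groups carry the strain label CD1, where the study's methods give a mixed background of C57BL/6 and CD1, and all carried Emx1-cre, which acts in the dorsal telencephalic lineage and so in progenitors and their progeny alike. Control-MADM animals (MADM7-GT/TG;Emx1-cre) had green Eed+/+ cells. Eed-MADM animals (MADM7-GT/TG,Eed;Emx1-cre) had green Eed-/- cells in a cortex that was otherwise mostly Eed+/-. In cKO-Eed-MADM animals (MADM7-GT,Eed/TG,Eed;Emx1-cre) the green cells were Eed-/- and so was the recombined tissue around them. The study's methods name the green cells as those of the intended uniparental disomy of chromosome 7 in all 3 paradigms, and Ccnd1 and Ccne1 lie on that chromosome.

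Control-MADM had 5 libraries at E12.5, where Eed-MADM had 8 and the tissue-wide mutant 4. E13.5 had 2, 2 and 4 in the same order, E16.5 had 3, 5 and 4, and P0 had 5, 9 and 4. Reads on genes ranged from 865832 to 2359317 per library at E12.5 and from 2784557 to 7249098 at the later ages. Levels are given as counts per 1000000 reads on genes (CPM), scaled across the 55 libraries, with the SD over libraries. Eed itself fell from 29.8 ± 2.95 CPM (SD, n = 5) in control-MADM at P0 to 15.5 ± 3.15 CPM in the 9 Eed-MADM libraries and to 11.7 ± 3.38 CPM in the 4 of cKO-Eed-MADM, and neither mutant group overlapped the control libraries. At E12.5 Eed was at 31.4 to 85.9 CPM in Eed-MADM and overlapped control-MADM, at 73.8 to 155.4 CPM. The study also left out libraries for low correlation with replicates or for reads in the deleted region of Eed. That was not done here, so that libraries with incomplete deletion may remain. Reads on the undeleted part of Eed still count, so that the remaining level is no measure of functional Eed. In bulk libraries, fewer cells of a type and less RNA per cell cannot be told apart, and the labels do not say whether the libraries of a group came from separate litters, so that p-values measure the spread between these libraries.

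Between genes, levels were compared per kilobase of exon. Reads that lie in more than 1 gene count for none, and exon lengths include bases shared with other genes. Those were 23.4% of the bases of Ccnd1 and 0% of those of Ccne1 and E2f1, so that ranks between genes can be shifted. Cdk4 had the highest level of the 10 genes and Ccnd2 the next highest in all 12 groups of age and paradigm. In control-MADM at P0 the levels were 313.1 ± 41.8 CPM per kb for Cdk4 and 140.5 ± 50.3 CPM per kb for Ccnd2 (SD, n = 5), with no overlap between libraries. Ccnd1 and E2f1 followed at 16.3 and 15.1 CPM per kb, then Cdk6 and Ccnd3, at 11.48 CPM per kb, each overlapping its neighbour. Rb1 and Ccne2 were lowest, at 2.85 and 1.91 CPM per kb. In cKO-Eed-MADM at P0 the ranks of the first 3 genes were the same, but Ccnd1 stood at 65.9 ± 19.1 CPM per kb and its libraries overlapped those of Ccnd2, at 102.2 ± 24.5 CPM per kb (n = 4). Ccnd2 and Ccnd1 also overlapped at E12.5 in both mutant paradigms.

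**Figure D1:**
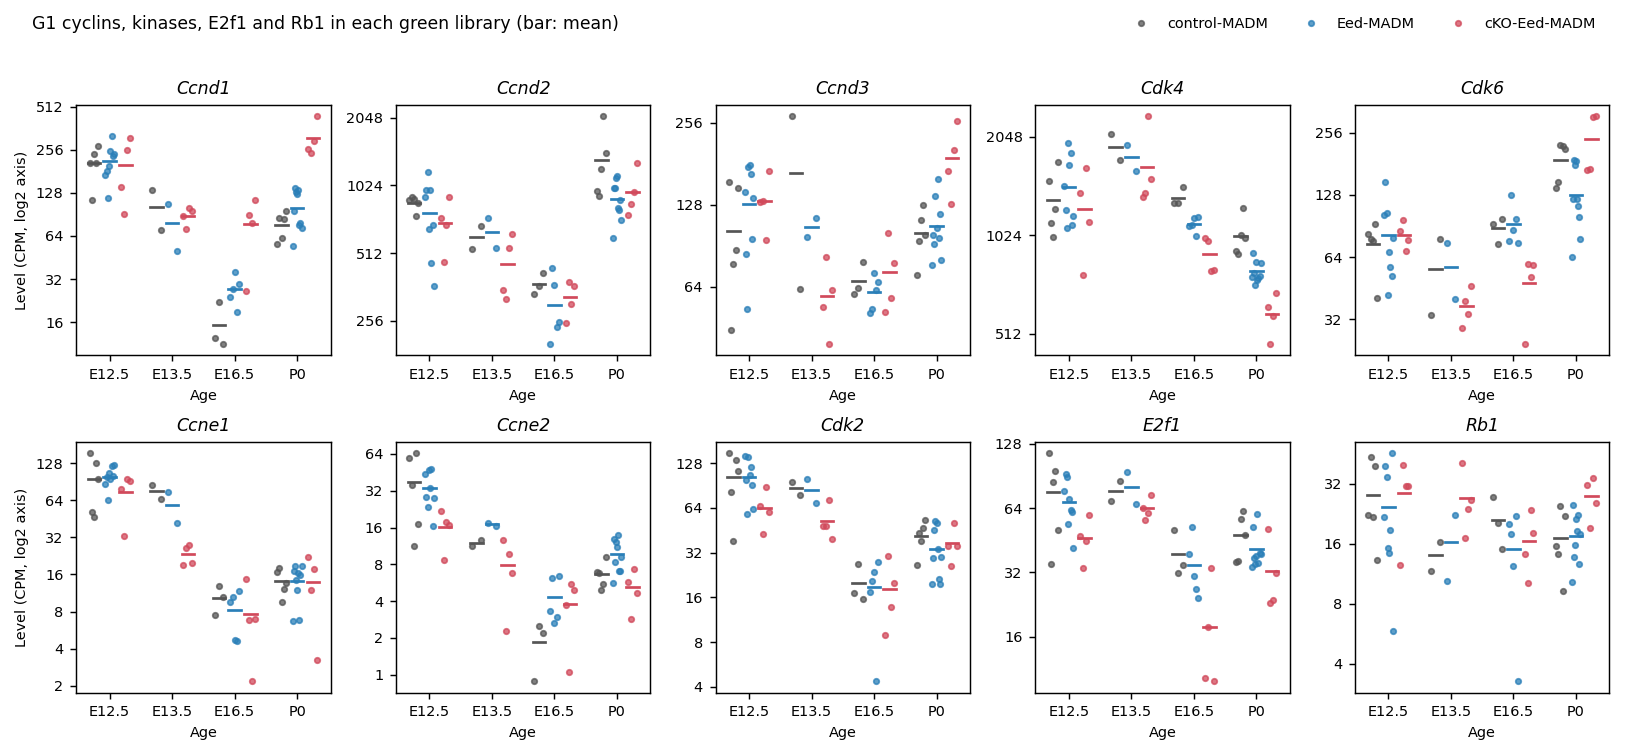
Level of each gene in every green library (points, CPM on a log2 axis) by age and paradigm, with a bar at the group mean. Ccnd1 falls to between 11.25 and 22.25 CPM in the 3 control-MADM libraries at E16.5, and the 4 cKO-Eed-MADM libraries at P0 reach 243.3 to 441.5 CPM.

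Ccnd1 (ENSMUSG00000070348.5, chr7:144929931-144939925, minus strand, GRCm38) encodes cyclin D1, the D cyclin most tied to growth signals, and had the largest difference of the 10 genes between cKO-Eed-MADM and control-MADM at E16.5 and at P0. At E16.5 its level was 12.4, 22.25 and 11.25 CPM in the 3 control-MADM libraries. It was 26.3, 89.6, 78.5 and 115.1 CPM in the 4 cKO-Eed-MADM libraries. All 4 mutant libraries lay above all 3 controls, library 1 only just. The difference was 2.35 ± 0.41 on the log2 scale (edgeR quasi-likelihood estimate ± SE), a 5.11-fold higher level, with an adjusted p of 0.00076 (Benjamini-Hochberg over all 13359 genes tested). The control value rests on 51 to 84 reads per library. Of the exon bases of Ccnd1, 23.4% overlap LTO1 on the other strand, and the libraries do not mark strand. Reads that lie in both genes count for neither.

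At P0 Ccnd1 was at 56.4, 85.8, 62.3, 83.9 and 95.2 CPM in control-MADM. It was at 260.5, 243.3, 296.1 and 441.5 CPM in cKO-Eed-MADM, so that the lowest mutant library stood above the highest control. The level was 4.06-fold higher (log2 2.02 ± 0.25, edgeR adjusted p = 1.7e-06). Leaving out any single library kept the log2 difference between 2.10 and 2.73 at E16.5. At P0 it stayed between 1.82 and 2.11 without any single control-MADM or cKO-Eed-MADM library, and Eed-MADM libraries were not left out. The call was kept at both ages. At E12.5 and E13.5 the Ccnd1 libraries of both groups overlapped, with log2 differences of -0.05 ± 0.31 and -0.22 ± 0.36.

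The sparse mutant gave smaller values. In Eed-MADM, Ccnd1 was at 23.95, 27.4, 35.9, 18.9 and 29.3 CPM at E16.5, 4 of 5 libraries above all controls, but the difference of 0.83 ± 0.38 did not pass the test (edgeR adjusted p = 0.45). At P0 its lowest, median and highest values were 54.1, 96.4 and 137.9 CPM, and 5 of 9 libraries lay above all controls (log2 0.40 ± 0.21, edgeR adjusted p = 0.32). Set directly against Eed-MADM, cKO-Eed-MADM had 2.87-fold more Ccnd1 at E16.5 (log2 1.52 ± 0.33, edgeR adjusted p = 0.0055), with 3 of 4 libraries above all 5 of Eed-MADM. At P0 the level was 3.07-fold higher (log2 1.62 ± 0.21, edgeR adjusted p = 5.1e-06) and the groups did not overlap. These comparisons share the cKO-Eed-MADM libraries with those against control-MADM.

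Ccnd2 (ENSMUSG00000000184.12, chr6:127125162-127152193, minus strand) encodes cyclin D2 and was the most abundant D cyclin per kb in all 12 groups. At P0 its lowest, median and highest levels were 919.0, 1216 and 2084 CPM in control-MADM, 596.3, 881.7 and 1129 CPM in Eed-MADM and 758.0, 901.6 and 1286 CPM in cKO-Eed-MADM. The 3 groups overlapped. Against control-MADM the log2 differences were -0.56 ± 0.18 in Eed-MADM (edgeR adjusted p = 0.11, DESeq2 adjusted p = 0.045) and -0.46 ± 0.22 in cKO-Eed-MADM (edgeR adjusted p = 0.13), so that neither passed the edgeR test.

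Ccnd3 (ENSMUSG00000034165.16, chr17:47505051-47599691, plus strand) encodes cyclin D3, the D cyclin best known from blood cells. RefSeq gives it a pair of start sites, and both windows are shown because Ccnd3 was, with Ccnd1, one of the genes that rose at P0. Each window runs from 250 bases before the start to the 50 bases from the start on (GRCm38.p6, read on the plus strand). Capitals would mark CACGTG, the E-box bound by MYC and its relatives, or an E2F octamer, and neither window holds one.
Ccnd3 first start, chr17:47504801-47505100: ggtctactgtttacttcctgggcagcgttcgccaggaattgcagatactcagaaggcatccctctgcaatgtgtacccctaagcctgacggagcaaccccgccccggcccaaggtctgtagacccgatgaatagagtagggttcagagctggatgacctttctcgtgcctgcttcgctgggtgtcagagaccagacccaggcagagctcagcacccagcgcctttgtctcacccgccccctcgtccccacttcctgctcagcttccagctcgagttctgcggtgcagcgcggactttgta
Ccnd3 second start, chr17:47593217-47593516: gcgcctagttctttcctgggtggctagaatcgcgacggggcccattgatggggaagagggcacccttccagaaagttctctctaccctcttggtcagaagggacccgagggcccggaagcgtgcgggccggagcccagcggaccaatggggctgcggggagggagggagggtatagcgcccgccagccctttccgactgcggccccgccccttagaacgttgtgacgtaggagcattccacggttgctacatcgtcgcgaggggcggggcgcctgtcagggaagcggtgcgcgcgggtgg

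At P0 Ccnd3 was at 70.7, 94.0, 112.4, 127.8 and 98.8 CPM in control-MADM. In cKO-Eed-MADM it was at 170.8, 129.0, 202.5 and 259.0 CPM, with library 2 just above the highest control. The level was 1.90-fold higher (log2 0.92 ± 0.21, edgeR adjusted p = 0.0022). Against Eed-MADM, whose libraries ran from 76.7 through a median of 99.3 to 158.4 CPM, it was 1.77-fold higher with 3 of 4 libraries above all 9 (log2 0.82 ± 0.18, edgeR adjusted p = 0.0023). At E16.5 the control-MADM libraries were at 60.1, 63.1 and 79.2 CPM and the cKO-Eed-MADM libraries at 51.9, 100.8, 58.3 and 78.4 CPM, and overlapped. A pseudogene, Ccnd3-ps, is annotated, and the deposited counts hold only reads with a single alignment.

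At E13.5 the Ccnd3 values of control-MADM were far apart, 270.5 CPM in replicate 1 and 62.9 CPM in replicate 3. The 4 cKO-Eed-MADM libraries were at 54.0, 82.0, 39.5 and 62.1 CPM. The log2 difference of -1.51 ± 0.44 was not called by edgeR (adjusted p = 0.20) and was called by DESeq2 (adjusted p = 0.049). Control replicate 1 alone lay above the mutant range.

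The mix of D cyclins can be read per kb within each library, which needs no scaling between libraries. Ccnd1 made up a median of 5.82% of D cyclin CPM per kb in control-MADM at E16.5 (range 4.28 to 9.28%), 13.8% in Eed-MADM (9.97 to 15.7%) and 28.4% in cKO-Eed-MADM (14.6 to 33.8%). At P0 the medians were 9.79% (7.02 to 14.4%), 15.3% (13.4 to 21.4%) and 34.6% (33.0 to 36.1%). The shares of cKO-Eed-MADM stood above all other libraries at P0, and above all control-MADM libraries at E16.5. The 3 shares add up to a fixed total, so that a higher share of Ccnd1 leaves less for the other genes. The Ccnd2 medians were 83.2%, 75.6% and 53.3% at P0. The sum of the 3 D cyclins overlapped at P0, at 122.3 to 253.9 CPM per kb in control-MADM and 155.3 to 260.0 CPM per kb in cKO-Eed-MADM. At E12.5 the Ccnd1 medians were 33.0%, 31.0% and 30.3%, close to that of cKO-Eed-MADM at P0. These shares are a description and were not tested. They are not corrected for exon bases shared with other genes (23.4% of Ccnd1, 7.86% of Ccnd2 and 4.11% of Ccnd3).

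**Figure D2:**
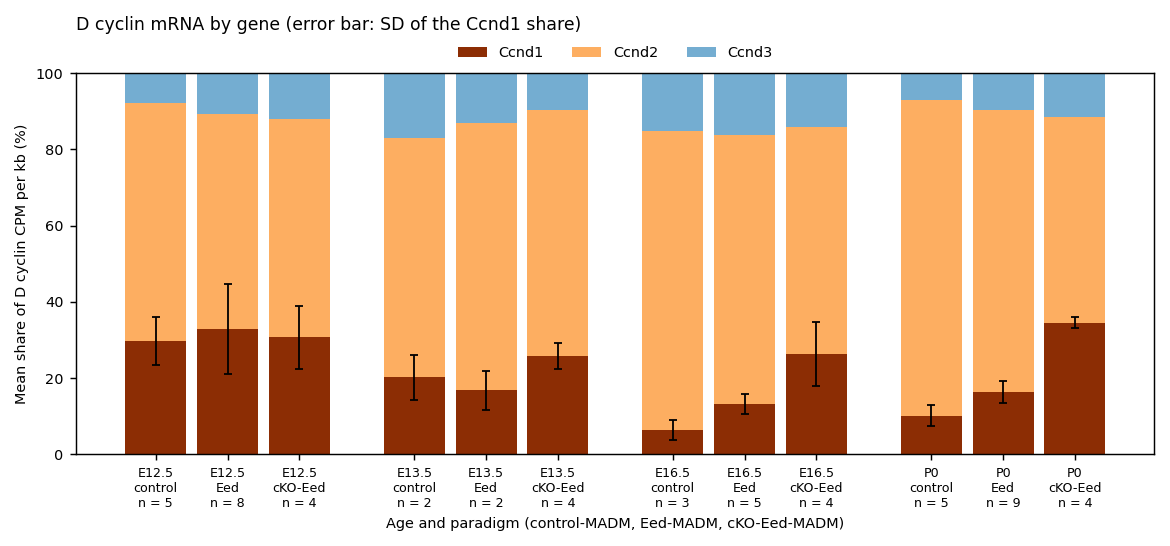
Mean share of each D cyclin in the summed D cyclin CPM per kb (%, stacked bars) by age and paradigm, with the SD of the Ccnd1 share as error bar and n below. The Ccnd1 share is 6.46% in control-MADM and 26.3% in cKO-Eed-MADM at E16.5, and 10.15% and 34.55% at P0.

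Cdk4 (ENSMUSG00000006728.12, chr10:127063534-127067920, plus strand) encodes the main kinase partner of the D cyclins, and it moved opposite to Ccnd1 in the tissue-wide mutant. Its promoter window is shown because it holds an unusual number of E-boxes. CACGTG, in capitals, occurs 4 times, beginning 172, 118, 98 and 11 bases before the start. Of 32851 RefSeq windows of 300 bases, 7.15% hold at least 1 CACGTG and 8 windows, 0.0244%, hold 4 or more. No other member window had more than 1, and whether MYC or a relative binds there was not measured.
Cdk4, chr10:127063285-127063584, plus strand: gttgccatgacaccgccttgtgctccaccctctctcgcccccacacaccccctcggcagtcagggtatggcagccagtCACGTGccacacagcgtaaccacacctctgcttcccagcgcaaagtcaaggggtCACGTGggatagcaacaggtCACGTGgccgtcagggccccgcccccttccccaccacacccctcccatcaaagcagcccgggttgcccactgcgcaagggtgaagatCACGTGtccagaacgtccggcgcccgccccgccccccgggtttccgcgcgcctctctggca

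At E16.5 Cdk4 was at 1284, 1284 and 1436 CPM in control-MADM and at 1005, 980.6, 795.1 and 803.8 CPM in cKO-Eed-MADM. Every mutant library lay below every control. The level was 1.48-fold lower (log2 -0.56 ± 0.11, edgeR adjusted p = 0.0030). At P0 the 5 control-MADM libraries were at 914.8, 898.8, 1027, 1239 and 1007 CPM and the 4 cKO-Eed-MADM libraries at 615.6, 475.8, 577.3 and 680.2 CPM. Again the groups were apart, and the level was 1.72-fold lower (log2 -0.79 ± 0.13, edgeR adjusted p = 6.3e-05).

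Eed-MADM lay between the other paradigms at both ages. At E16.5 its Cdk4 values of 1092, 1103, 1159, 1015 and 1165 CPM were all below control-MADM and all above cKO-Eed-MADM, but neither difference passed the test (log2 -0.27 ± 0.11 against control-MADM, edgeR adjusted p = 0.37). At P0 its lowest, median and highest values were 721.7, 765.6 and 905.7 CPM, 8 of 9 below every control (log2 -0.35 ± 0.10, edgeR adjusted p = 0.083, DESeq2 adjusted p = 0.023). cKO-Eed-MADM was 1.35-fold lower than Eed-MADM at P0 with no overlap (log2 -0.44 ± 0.11, edgeR adjusted p = 0.0083), a call lost with counts of 1 strand (adjusted p = 0.055) and with a replicate block (adjusted p = 0.071). Of the exon bases of Cdk4, 19.7% overlap Tspan31 on the other strand.

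Cdk6 (ENSMUSG00000040274.11, chr5:3341485-3531008, plus strand) encodes the second D cyclin kinase. At E16.5 it was at 92.8, 74.3 and 97.9 CPM in control-MADM, at 76.3, 127.3, 87.1, 97.9 and 75.01 CPM in Eed-MADM and at 24.4, 59.1, 51.2 and 58.4 CPM in cKO-Eed-MADM. The tissue-wide mutant lay below both other groups. It was 1.82-fold lower than control-MADM (log2 -0.86 ± 0.26, edgeR adjusted p = 0.044) and 1.91-fold lower than Eed-MADM (log2 -0.93 ± 0.23, edgeR adjusted p = 0.016). The first of these calls was lost when any of 7 of the 12 libraries was left out, with an adjusted p of up to 0.158.

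At P0 Cdk6 stood at 137.7, 147.8, 224.3, 221.0 and 213.7 CPM in control-MADM and at 169.0, 170.5, 303.5 and 307.8 CPM in cKO-Eed-MADM. These groups overlapped (log2 0.34 ± 0.28, edgeR adjusted p = 0.41). Against Eed-MADM (63.9, 122.3 and 189.1 CPM as lowest, median and highest) Cdk6 was 1.85-fold higher, with 2 of 4 libraries above all 9 (log2 0.89 ± 0.24, edgeR adjusted p = 0.012). That call was lost without cKO-Eed-MADM replicate 3 (adjusted p = 0.059) or replicate 4 (adjusted p = 0.067). Against Eed-MADM the direction at P0 was thus the reverse of that at E16.5, a change that was not tested. The change of the difference from control-MADM between these ages, 1.22 ± 0.43 on the log2 scale, did not pass the test (edgeR adjusted p = 0.18). The ratio of Cdk4 to Cdk6 per kb had a median of 24.1 (19.7 to 28.6) in control-MADM and 10.7 (8.19 to 15.7) in cKO-Eed-MADM at P0, without overlap.

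**Figure D3:**
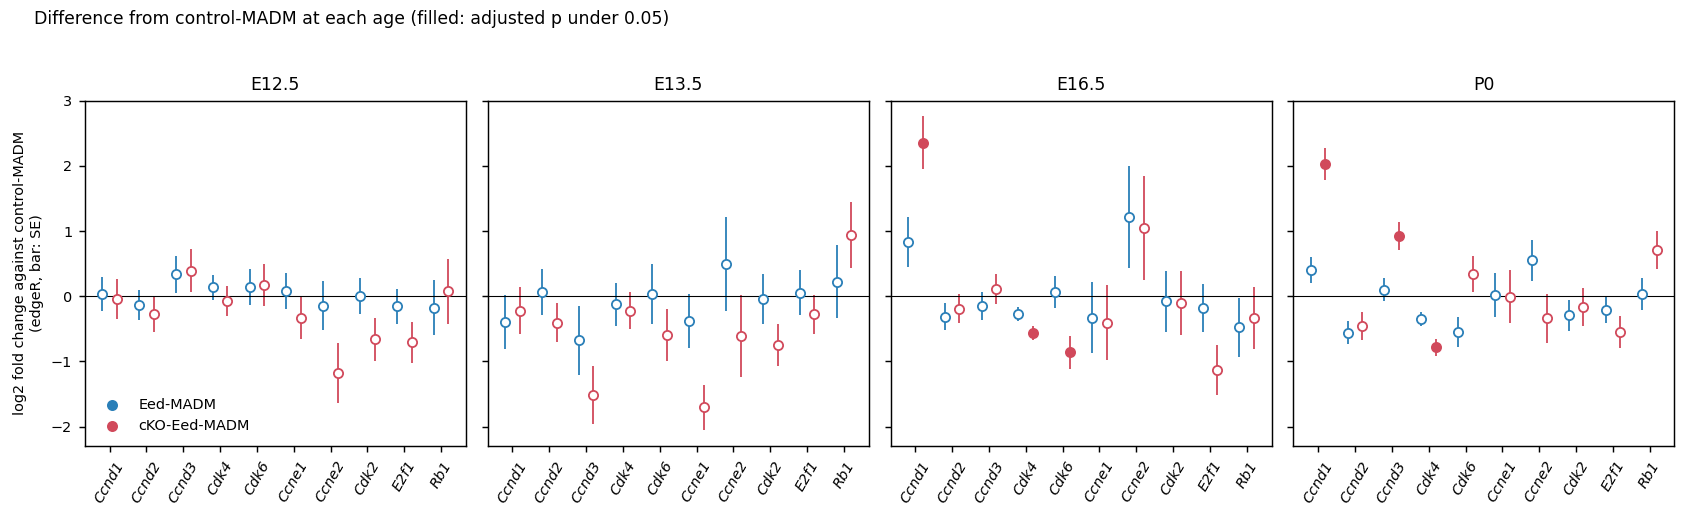
log2 fold change of each gene against control-MADM at the 4 ages (edgeR estimate, bar: SE) for Eed-MADM and cKO-Eed-MADM, filled where the adjusted p was under 0.05. The filled points are Ccnd1, Cdk4 and Cdk6 at E16.5 and Ccnd1, Ccnd3 and Cdk4 at P0, all of cKO-Eed-MADM.

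Ccne1 (ENSMUSG00000002068.16, chr7:38097984-38107534, minus strand) encodes cyclin E1, which E2F turns on late in G1. At E13.5 it was at 85.5 and 65.5 CPM in control-MADM and at 75.1 and 41.7 CPM in Eed-MADM. It was at 19.2, 26.4, 27.7 and 20.0 CPM in cKO-Eed-MADM, below all libraries of both other groups. The difference from control-MADM, -1.70 ± 0.35 on the log2 scale or 3.26-fold, was not called by edgeR (adjusted p = 0.072) and was called by DESeq2 (adjusted p = 0.0019). At E16.5 and P0 the Ccne1 groups overlapped, with log2 differences of -0.40 ± 0.58 and -0.01 ± 0.41.

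Ccne2 (ENSMUSG00000028212.16, chr4:11191351-11204779, plus strand), the second cyclin E gene, was thinly read, with 6 to 10 reads in the control-MADM libraries at E16.5. Its difference from control-MADM in cKO-Eed-MADM passed the test at no age, and ran from -1.18 ± 0.46 at E12.5 to 1.05 ± 0.80 at E16.5. With so few reads its SE at E16.5 is close to the size of the difference itself. Of its exon bases, 17.4% overlap Ints8 on the other strand.

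Cdk2 (ENSMUSG00000025358.16, chr10:128697939-128705031, minus strand) encodes the cyclin E kinase. Its window is shown as the only one of 7 member windows, of 6 genes, with one of the 8 E2F octamers searched on both strands (TTTCCCGC, TTTCCCGG, TTTCGCGC, TTTCGCGG, TTTGCCGC, TTTGCCGG, TTTGGCGC and TTTGGCGG; no member window holds both motifs, so that none overlap). The match, in capitals, begins 140 bases before the start and lies on the strand opposite to the one printed. Such octamers occur in 4.51% of all windows. The Ccne1 window held neither motif. The E2f1 window lies wholly inside the annotated gene and says nothing of the annotated promoter.
Cdk2, chr10:128705002-128705301, minus strand: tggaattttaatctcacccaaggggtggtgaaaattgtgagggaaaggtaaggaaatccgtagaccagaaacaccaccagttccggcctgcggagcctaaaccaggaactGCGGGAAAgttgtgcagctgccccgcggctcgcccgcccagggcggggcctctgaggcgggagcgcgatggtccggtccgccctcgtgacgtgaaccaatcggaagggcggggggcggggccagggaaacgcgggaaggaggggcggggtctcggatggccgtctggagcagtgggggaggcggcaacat

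At E13.5 Cdk2 ranged from 77.8 to 95.3 CPM in control-MADM and from 39.8 to 72.0 CPM in cKO-Eed-MADM, apart but not called (log2 -0.74 ± 0.32, edgeR adjusted p = 0.44). At E16.5 and P0 all 3 paradigms overlapped. Its log2 differences from control-MADM in cKO-Eed-MADM were -0.10 ± 0.49 and -0.16 ± 0.29.

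E2f1 (ENSMUSG00000027490.17, chr2:154559407-154569892, minus strand) encodes the E2F factor that drives entry into S phase. At E16.5 it was at 31.7 to 50.8 CPM in control-MADM and 9.90 to 33.5 CPM in cKO-Eed-MADM, 3 of 4 mutant libraries below all controls. The log2 difference of -1.12 ± 0.38 was not called by edgeR (adjusted p = 0.082) and was called by DESeq2 (adjusted p = 0.047). At P0 it was at 35.7 to 62.2 CPM and 23.1 to 51.1 CPM, again with 3 of 4 below (log2 -0.54 ± 0.24, edgeR adjusted p = 0.11). Without cKO-Eed-MADM replicate 1 at P0 the adjusted p was 0.015.

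Rb1 (ENSMUSG00000022105.6, chr14:73183673-73325822, minus strand) encodes RB itself. At P0 it was at 9.28 to 24.6 CPM in control-MADM, 10.3 to 24.9 CPM in Eed-MADM and 19.1 to 34.2 CPM in cKO-Eed-MADM, with 3 of 4 libraries of the last above all others. The log2 difference of 0.70 ± 0.29 from control-MADM was not called (edgeR adjusted p = 0.084). It was called without cKO-Eed-MADM replicate 2 or control-MADM replicate 4. At E16.5 the groups overlapped (log2 -0.34 ± 0.48). Of the exon bases of Rb1, 14.9% overlap Rcbtb2 or Lpar6 on the other strand.

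Counted together against control-MADM, cKO-Eed-MADM had 0 of the 10 genes called at E12.5, where edgeR called 0.0% of all genes tested, and 0 at E13.5, where it called 0.0372%. At an unadjusted p under 0.05 there were 2 and 3 genes, and DESeq2 called 0 and 2, beside 0.0331% and 2.13% of all genes. At E16.5 it was 3 of 10, Ccnd1 higher and Cdk4 and Cdk6 lower, beside 8.58% of all 13359 genes tested. DESeq2 called these 3 and E2f1 there, beside 11.6% of all genes. At P0 it was again 3 of 10, Ccnd1 and Ccnd3 higher and Cdk4 lower, beside 24.2% of 14161 genes, so that at P0 the share of members called was close to that of all genes. The median log2 difference over the 10 genes was -0.26 at E16.5 and -0.08 at P0, where that over all genes tested was 0.00 and -0.01.

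Eed-MADM had 0 of 10 called against control-MADM at each of the 4 ages. In order of age, edgeR called 0.0%, 0.0%, 0.255% and 1.75% of all genes there, 0, 0, 2 and 3 of the 10 had an unadjusted p under 0.05, and DESeq2 called 0, 0, 0 and 2 of them (0.0%, 0.297%, 1.73% and 4.29% of all genes). cKO-Eed-MADM against Eed-MADM had 0 called at E12.5 (0.0% of all genes) and E13.5 (0.0223%), where 2 genes each had an unadjusted p under 0.05 and DESeq2 called 0 (0.00552% and 0.416% of all genes). It had 2 of 10 called at E16.5 (7.04% of all genes) and 4 of 10 at P0 (19.5%). Since the comparisons share libraries in pairs, their counts are not independent.

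The gap in Ccnd1 and Ccnd3 between control-MADM and cKO-Eed-MADM was also compared between ages, an interaction test added after the values at each age had been seen. From E13.5 to E16.5 the difference rose by 2.56 ± 0.52 on the log2 scale for Ccnd1 (edgeR adjusted p = 0.0024) and by 1.61 ± 0.46 for Ccnd3 (edgeR adjusted p = 0.032), 2 of 10 genes called beside 4.3% of all 13926. Without E13.5 control-MADM replicate 1, which leaves 1 control library at that age, the change for Ccnd1 was 2.01 and no longer called (edgeR adjusted p = 0.098). The value for Ccnd3 rests on that library, being 0.17 without it (edgeR adjusted p = 0.97). From E16.5 to P0 no gene was called (edgeR, 0 of 10 beside 1.17% of all genes, 2 at an unadjusted p under 0.05, 0 by DESeq2 beside 2.05%).

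Markers of cell types differed between the same groups, where edgeR called 8.58% of all genes at E16.5 (6.16% higher) and 24.2% at P0 (10.0% lower). At E16.5 the summed level of 6 interneuron markers (Gad1, Gad2, Dlx1, Dlx2, Dlx5, Lhx6) was 13.01 to 34.9 CPM in control-MADM and 255.0 to 511.8 CPM in cKO-Eed-MADM, with 5 of 6 called higher. That of 6 astrocyte and oligodendrocyte lineage markers was 19.2 to 30.6 and 81.9 to 391.6 CPM (4 of 6 higher), that of 8 radial glia markers 749.2 to 974.3 and 909.2 to 1883 CPM (2 of 8 higher), that of 6 intermediate progenitor markers 750.5 to 964.4 and 421.8 to 604.7 CPM (2 of 6 lower) and that of 8 projection neuron markers 8740 to 9974 and 6035 to 7674 CPM (3 of 8 lower). The E16.5 cKO-Eed-MADM library with the lowest Ccnd1, replicate 1 at 26.3 CPM, also had the lowest radial glia sum (909.2 CPM) and the lowest glial lineage sum (81.9 CPM). The library with the highest Ccnd1, replicate 4, had the highest of both (1883 and 391.6 CPM). Only these marker lists were looked at in this way, over 4 libraries, and a link to Ccnd1 was not tested.

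At P0 the radial glia sums overlapped, at 2670 to 7007 CPM in control-MADM and 3540 to 7049 CPM in cKO-Eed-MADM (3 of 8 higher: Vim, Hes1 and Slc1a3). The glial lineage sums of 852.8 to 2061 and 1267 to 2580 CPM overlapped as well (3 of 6 higher: Gfap, Aqp4 and Aldh1l1). Of these called genes, all but Aldh1l1 had every cKO-Eed-MADM library above every control-MADM library. The call itself makes such a gap likely, and its share over all genes was not counted. The other markers of both lists were not called. Projection neuron sums were 3830 to 7309 and 1546 to 3495 CPM (5 of 8 lower, among them Neurod2 and Neurod6). Interneuron sums were 366.3 to 888.3 and 163.6 to 241.8 CPM (4 of 6 lower, among them Dlx2, Dlx1 and Dlx5). Intermediate progenitor sums were 405.7 to 678.5 and 582.7 to 1051 CPM (2 higher and 3 lower of 5 tested, Neurog1 at 0 in all control-MADM libraries). Btg2 rose from a mean of 156.8 CPM to 603.3 CPM, beside a mean sum of 862.1 CPM in cKO-Eed-MADM. Eomes (98.95 to 33.7 CPM) and Insm1 (112.2 to 21.5 CPM) fell without overlap.

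Markers of cells from outside the lineage differed as well, beside the same 24.2% of all genes called at P0 and 8.58% at E16.5. Microglia marker sums at P0 were 6.07 to 49.1 CPM in control-MADM and 150.9 to 378.7 CPM in cKO-Eed-MADM (5 of 6 higher, C1qa at 0 in 2 of 5 control libraries), and endothelial and meningeal sums 12.3 to 25.7 and 87.4 to 182.2 CPM (3 of 4 tested higher, Flt1 and Pecam1 each at 0 in 2 control libraries). At E16.5 these sums were 2.87 to 4.17 and 7.93 to 59.8 CPM for microglia (2 of 5 tested higher, Csf1r at 0 in all control libraries) and 4.88 to 9.26 and 9.76 to 21.3 CPM for endothelial and meningeal cells (1 of 3 tested higher, Flt1 at 0 in all control libraries). Red blood cell sums overlapped at both ages, with 1 of 5 markers higher at E16.5 and 0 of 5 called at P0. The part of these cell types in the results for Ccnd1, Ccnd3, Cdk4 and Cdk6 was not tested.

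The inhibitors of these kinases also differed in cKO-Eed-MADM. Of 7 CDK inhibitor genes, 4 were called higher and 0 lower at E16.5 (Cdkn1a, Cdkn2a, Cdkn2b and Cdkn2c), beside 8.58% of all genes called and 6.16% called higher. At P0 3 were higher and 2 lower, beside 24.2% of all genes. Cdkn1a, the p53 target that encodes p21, was at 25.35 ± 13.4 CPM in control-MADM (n = 5) and 628.6 ± 228.3 CPM in cKO-Eed-MADM (n = 4) at P0 (log2 4.64 ± 0.42, edgeR adjusted p = 1.3e-07). Cdkn2b, which encodes the CDK4 and CDK6 inhibitor p15, was at 1.23 ± 0.73 and 42.6 ± 5.58 CPM (edgeR adjusted p = 1.3e-07). Cdkn2a, the p16 and ARF gene silenced by PRC2 in many tissues, had no read in any of the 5 control-MADM libraries and 31.8 ± 12.7 CPM in cKO-Eed-MADM (edgeR adjusted p = 3.8e-08). The genes that fell were Cdkn1b by 1.25 and Cdkn2d by 0.87 on the log2 scale, both chosen for naming after their values were seen.

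In Eed-MADM at P0, 2 of the 7 inhibitors were called beside 1.75% of all genes, with Cdkn1a at 71.5 ± 30.8 CPM (log2 1.52 ± 0.34, edgeR adjusted p = 0.030) and Cdkn2a at 2.79 ± 1.71 CPM (edgeR adjusted p = 0.00017).

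Genes downstream of the G1 switch were lower where they were called in cKO-Eed-MADM at P0. Of 18 DNA replication genes known to be driven by E2F, 7 fell and 0 rose, beside 24.2% of all genes called and 10.0% called lower, among them Rrm2 (log2 -1.45 ± 0.19, edgeR adjusted p = 3.5e-06) and Mcm7 (-0.75 ± 0.14, 0.00025). Of 7 genes of S and M phase control, 3 fell, Ccna2 by 1.57, Cdk1 by 1.35 and Ccnb1 by 1.59 on the log2 scale. Of 11 RB and E2F relatives, 1 fell (E2f7, a repressing E2F, log2 -1.77 ± 0.43), and of 4 genes of cyclin turnover 2 fell, including Fbxw7, which targets cyclin E for destruction (log2 -1.08 ± 0.17). Of the CDK-activating kinase, Cdk7 fell (log2 -0.63 ± 0.21, edgeR adjusted p = 0.027) and the other 2 genes were not called. At E16.5 edgeR and DESeq2 each called 0 of the 17 replication genes tested, 0 of the 11 relatives and 0 of the 7 S and M phase genes, with 2, 1 and 1 at an unadjusted p under 0.05. At E13.5 the replication gene sums were 2683 to 3725 CPM in control-MADM and 1150 to 1847 CPM in cKO-Eed-MADM. Those of the relatives were 520.7 to 603.3 and 296.3 to 418.4 CPM. Those of the S and M phase genes were 559.0 to 683.4 and 286.9 to 553.0 CPM. These E13.5 sums, of 2 and 4 libraries, did not overlap, while those of cyclin turnover and the CDK-activating kinase did. The sums were not tested.

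The same genes were compared between ages within each paradigm, to see how they move as the cortex passes from early neurogenesis to birth. In control-MADM, 6 of 10 fell from E13.5 to E16.5 and 0 rose, where of all 13926 genes 15.8% were called, 7.32% falling and 8.44% rising. Ccnd1 fell from 133.6 and 71.05 CPM to the 11.25 to 22.25 CPM given above (log2 -2.79 ± 0.42, edgeR adjusted p = 1.5e-05), and Ccne1 from 85.5 and 65.5 CPM to 7.53 to 12.8 CPM (log2 -2.91 ± 0.55, edgeR adjusted p = 0.00031). Cdk2 fell by 2.16, Ccne2 by 2.73, Ccnd3 by 1.34 and Cdk4 by 0.55 on the log2 scale. The Ccnd3 fall rests on E13.5 control-MADM replicate 1, without which it was 0.07, and the Cdk4 fall was lost in 4 of 8 other settings. With 2 control-MADM libraries at E13.5, each of these values leans on few samples. Radial glia marker sums fell in the same libraries from 1630 to 1932 CPM at E13.5 to 749.2 to 974.3 CPM at E16.5. Projection neuron sums rose from 5646 to 6170 CPM to 8740 to 9974 CPM. The part of these shifts in the changes of the 10 genes was not tested.

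From E16.5 to P0, 4 of 10 rose in control-MADM and 0 fell, where of all genes 14.1% were called, 8.31% rising and 5.77% falling. They were Ccnd1 (log2 2.35 ± 0.37), Ccnd2 (1.83 ± 0.27), Ccne2 (1.86 ± 0.56) and Cdk6 (1.10 ± 0.32). The Ccne2 call was lost in 4 of 8 other settings and without E16.5 control-MADM replicate 1 or 3, and the Cdk6 call in 1 setting and without E16.5 control-MADM replicate 1 or 2. Radial glia marker sums rose in the same libraries from 749.2 to 974.3 CPM at E16.5 to 2670 to 7007 CPM at P0, and glial lineage sums from 19.2 to 30.6 CPM to 852.8 to 2061 CPM, and their part in these changes was not tested.

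The same steps were tested within each mutant, and the differences between paradigms in these steps were tested only where given above. In Eed-MADM 7 of 10 fell from E13.5 to E16.5 (19.3% of all genes called, 9.28% falling and 9.99% rising), a count that was 2 without E13.5 replicate 2, and from E16.5 to P0 5 rose and Cdk4 fell (21.0%, 12.1% rising and 8.91% falling). In cKO-Eed-MADM 4 of 10 fell from E13.5 to E16.5 (17.5% of all genes called, 7.6% falling and 9.94% rising), Ccne1, Cdk2, Cdk4 and E2f1, the last by 1.86 on the log2 scale (SE 0.30, edgeR adjusted p = 2.9e-05). Ccnd1, which fell in the other paradigms, was at 71.4 to 99.9 CPM at E13.5 and 26.3 to 115.1 CPM at E16.5 there (log2 -0.22 ± 0.31, edgeR adjusted p = 0.69). From E16.5 to P0 6 rose and Cdk4 fell in cKO-Eed-MADM (17.7%, 9.58% rising and 8.14% falling), and Cdk6 rose by 2.32 ± 0.31 (edgeR adjusted p = 1.7e-06) from the low level of E16.5. Of these 6 calls, that of Cdk2 (edgeR adjusted p = 0.04999) was lost without any of 20 of the 29 libraries left out. That of E2f1 was lost without any of 5 of them, and each was lost in 2 of 8 other settings. E12.5 was kept out of these tests because its cells were lysed in another buffer.

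**Figure D4:**
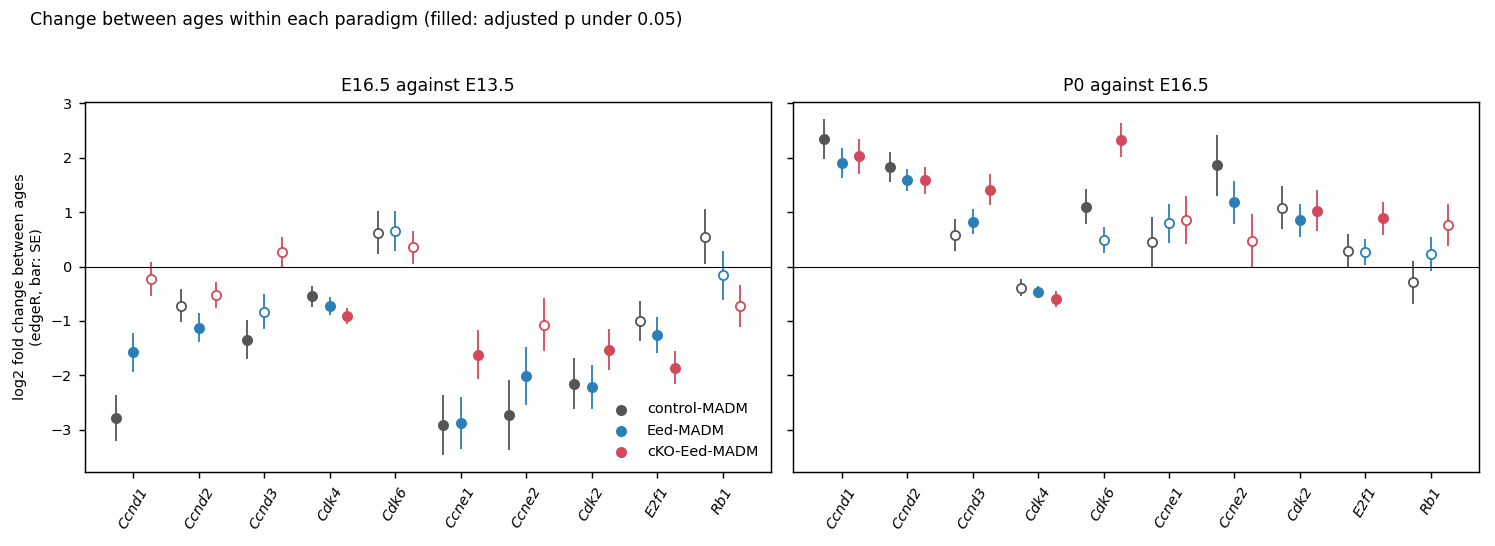
log2 fold change of each gene between ages within each paradigm (edgeR estimate, bar: SE), filled where the adjusted p was under 0.05. From E13.5 to E16.5 Ccnd1 fell by 2.79 in control-MADM and was at -0.22 in cKO-Eed-MADM, and Cdk4 is below 0 in both steps in every paradigm.

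The genes whose mean levels most resembled a member's over the 12 groups were taken as a description. For Ccnd1 they were Sesn3, Epb41l2 and C330007P06Rik (Pearson r of log2 levels 0.96 each, over 12493 genes). For Ccnd2 they were Gnai2, Hes5, a Notch effector of radial glia, and AW047730 (r = 0.95, 0.93 and 0.93). For E2f1 they were Mms22l, Ddx19a and Gm19554 (0.93, 0.93 and 0.92), and for Rb1 Nrros, Atp2a2 and Plcxd3 (0.89, 0.89 and 0.88). The 12 points share ages and paradigms, so that these values carry no test.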

How the data were processed

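RNA of sorted green, yellow and red cells was prepared by the authors with Smart-Seq v2, which does not mark strand, and sequenced on HiSeq 2500 per the labels (the study's methods also name NextSeq550). E12.5 cells were sorted into a Triton lysis buffer and later ages into an SDS and proteinase K buffer. The authors deposited, per library, raw counts of uniquely aligned reads per gene from STAR (named in the submitters' processing notes, with GRCm38/mm10; annotation release: not given in the sources used here), in 3 count columns, of which the 1 without regard to strand was used. Reads in rows that name no gene, between 13.4% and 40.1% of unique reads (median 26.3%), were left out of library sizes. Gene names and exon lengths came from GENCODE M21, which matched 53274 of 53379 identifiers, and promoter windows from RefSeq on GRCm38.p6, which held 6 of the 10 genes.

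Counts were tested with edgeR 4.0.16 (quasi-likelihood test, TMM, Benjamini-Hochberg over all genes tested, threshold 0.05), per age with the 3 paradigms in 1 fit, on genes with a mean count over 1 at E12.5 or over 10 later, and between ages in 1 fit of 9 groups of E13.5, E16.5 and P0. Alternatives were DESeq2 1.42.0, its size factors, no TMM, no filter, an adjusted p under 0.1, the paradigms in pairs, 1 strand column, all green libraries, a replicate block and leaving out single libraries. Each library was left out in turn except those of Eed-MADM at E12.5 and P0. The steps were tested on simulated data drawn with the same spread at every age. The real libraries varied most at E12.5 (median biological coefficient of variation 0.63, against 0.273 at P0). The simulation thus does not show how many changes could be found at E12.5. The 10 genes and all gene lists were chosen with earlier results of these data known. All 10 genes are named; of each other pathway list up to 3 genes with the lowest adjusted p in cKO-Eed-MADM against control-MADM at P0, any CDK inhibitor or RB and E2F relative called in Eed-MADM, and for 4 members the 3 genes most alike. The 4 inhibitors called at E16.5 are named beyond this rule, and 1 marker gene that it selects is not reported here.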

Additional observations from a re-analysis of the deposited data

Results flagged for a closer look

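The difference between control-MADM and cKO-Eed-MADM changed from E13.5 to E16.5 by 2.56 on the log2 scale for Ccnd1 and by 1.61 for Ccnd3, by an interaction test chosen after the values had been seen (edgeR adjusted p = 0.0024 and 0.032). Without E13.5 control-MADM replicate 1 they were 2.01 and 0.17, and neither was called.

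Red libraries, which entered no test, gave the other values of this kind. In the 2 red cKO-Eed-MADM libraries the median of Ccnd1 was 94.25 CPM at E16.5, against 12.5 to 25.9 CPM in the 2 red control-MADM libraries, and 203.6 CPM at P0, against 44.0 to 68.2 CPM. At P0 the medians were 1072 CPM for Ccnd2, against 656.4 to 729.0 CPM, and 34.9 CPM for Rb1, against 13.1 to 24.7 CPM. For Ccnd2 the green libraries showed no such gap. The red values were listed because all cKO-Eed-MADM libraries stood above all control-MADM libraries of that colour and age. This direction was thus set by the choice, and genes lower in cKO-Eed-MADM were not listed. Each group had 2 libraries and no test. At P0, 1 of the red cKO-Eed-MADM libraries, replicate 1, had reads on only 13133 genes, against 18385 in the other. No library stood far from the rest of its group in any of the 90 sets of 1 gene in 1 group of 4 to 10 libraries.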

How the results depend on the processing

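Counts of the 10 genes called were within 1.5 times the reported count in 177 of 192 comparisons with other settings. Ccnd1 and Cdk4 in cKO-Eed-MADM against control-MADM at E16.5 and P0 and Ccnd3 at P0 were called under each of 9 settings. They were also called without any 1 of the libraries left out in turn, which did not include Eed-MADM at P0. For cKO-Eed-MADM against control-MADM at E13.5 (0 called) an adjusted p under 0.1 gave 1, DESeq2 2 and no filter on low counts 2. For Eed-MADM against control-MADM at P0 (0 called) these were 1 with an adjusted p under 0.1, 2 with DESeq2 and 1 with all green libraries. All green libraries, shallow ones included, gave 3 in place of 6 for E16.5 against E13.5 and 2 in place of 4 for P0 against E16.5 in control-MADM, 2 in place of 7 and 2 in place of 6 in Eed-MADM, 2 in place of 4 and 4 in place of 7 in cKO-Eed-MADM, and 0 in place of 2 for the change from E13.5 to E16.5, where counts of 1 strand gave 1. For the change from E16.5 to P0 (0 called) no filter gave 1. The cause was not tested.

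Leaving out 1 library gave 0 to 2 genes for cKO-Eed-MADM against control-MADM at E13.5 (2 without control-MADM replicate 3), 2 to 3 at E16.5 and 3 to 4 at P0, 0 to 1 for Eed-MADM against control-MADM at P0 (1 without cKO-Eed-MADM replicate 2), and 2 to 3 and 3 to 5 for cKO-Eed-MADM against Eed-MADM at E16.5 and P0. Between E13.5 and E16.5 it gave 4 to 7 genes in control-MADM, 2 to 8 in Eed-MADM and 4 to 5 in cKO-Eed-MADM, and between E16.5 and P0 2 to 5 (2 without E16.5 control-MADM replicate 1), 4 to 6 and 5 to 7. The change from E13.5 to E16.5 gave 0 to 2, with 0 without E13.5 control-MADM replicate 1 and 1 without any of E13.5 cKO-Eed-MADM replicates 1 and 3, E16.5 cKO-Eed-MADM replicates 2 and 4 and E16.5 control-MADM replicates 1 and 2. The direction turned for Ccnd3 in control-MADM from E13.5 to E16.5, which ran from -2.053 to 0.06937 (log2, the last without E13.5 control-MADM replicate 1), and for Ccnd1 in cKO-Eed-MADM, from -0.4789 to 0.05979 (the last without E16.5 replicate 1). Where 1 library was left in a group, it was taken to vary like the other groups. No Eed-MADM library of E12.5 or P0 was left out, so that none of these ranges shows the effect of such a library.

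The tests took libraries as unpaired. Same-numbered libraries had a median correlation of deviations of 0.03 (36 pairs, 9 over 0.1), and other-numbered ones -0.008 (224 pairs, 31 over 0.1). These values do not settle whether replicate numbers pair libraries. With a replicate block the count was 3 in place of 4 for cKO-Eed-MADM against Eed-MADM at P0, where Cdk4 was lost, 3 in place of 4 for control-MADM from E16.5 to P0 and 6 in place of 7 for cKO-Eed-MADM from E16.5 to P0, and was otherwise the same.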

Other observations

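Yellow and red cells of the same cortices give a further view of Ccnd1 and Cdk4. At P0 Ccnd1 was at 15.7 and 19.4 CPM in the yellow control-MADM libraries, below the red ones (44.0 and 68.2 CPM) and the 5 green ones (56.4 to 95.2 CPM). In the mosaic Eed-MADM animals the yellow libraries, whose cells are Eed+/-, were at 47.8 and 48.5 CPM and the red ones, whose cells are Eed+/+, at 64.8 and 106.4 CPM. In cKO-Eed-MADM, where cells of every colour are Eed-/-, the yellow library was at 242.4 CPM and the red ones at 148.9 and 258.3 CPM. Cdk4 was at 958.5 and 1051 CPM in red control-MADM and at 797.0 and 576.2 CPM in red cKO-Eed-MADM at P0, in the direction of the green libraries. Red cKO-Eed-MADM replicate 1 (148.9 CPM of Ccnd1) and yellow control-MADM replicate 2 (15.7 CPM) had reads on only 13133 and 13181 genes, where the other red and yellow P0 libraries given here had reads on 17336 to 21212. By the study's methods green cells carry paternal and red cells maternal disomy of chromosome 7, on which Ccnd1 lies. Between colours, Eed genotype and the parental origin of chromosome 7 thus cannot be told apart. The red and yellow values have 1 or 2 libraries a group and were not tested.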
